A study of Mus musculus with 6 samples.

Results

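The 5 genes described here are the 4 LEF/TCF transcription factors, Lef1, Tcf7, Tcf7l1 and Tcf7l2, and Ctnnb1, which encodes their partner beta-catenin. They were chosen by symbol from the 23224 genes of the deposited table, and all 5 had a row. The data are RNA sequencing profiles of mouse intestinal tumour organoids, 3 libraries with the genotype label SOX17KO and 3 with the label Control. Both groups are AKP organoids that were taken from in vivo tumours, and the labels do not spell out the alleles behind that name. By the series' design SOX17 was deleted with CRISPR-Cas9 in the first group. The labels name no guide, clone, sex, age or treatment. Nor do they tell whether replicates are separate cultures, so every p-value rests on a spread between libraries that may be technical. The comparison addressed what SOX17, an endoderm transcription factor of the SOX family, does in colon cancer.

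LEF/TCF proteins bind DNA through a high mobility group (HMG) box, a domain that SOX proteins share in a related form. Without beta-catenin they recruit co-repressors of the Groucho/TLE family and keep Wnt target genes low. When the destruction complex built on APC and AXIN fails, beta-catenin accumulates, enters the nucleus and turns the same factors into activators. In the intestine Tcf7l2 is known as the factor needed to maintain crypt stem cells, Tcf7l1 acts mainly as a repressor, and Tcf7 and Lef1 are themselves Wnt targets and are best known from lymphocytes. Short forms of Tcf7 and Lef1 that lack the beta-catenin binding region act as repressors; counts per gene cannot tell the forms apart. In other systems, first in frog embryos, SOX17 protein was found to bind beta-catenin and to oppose TCF activity.

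The 4 factors are paralogs, so the stretch of coding sequence in which they are most alike is shown first. It is the window of 90 coding bases, without gaps, that held the most bases identical in all 4 genes, and it encodes part of the HMG box and the basic residues after it. Capitals mark the 65 bases that are the same in all 4, read from the GENCODE M21 transcripts:
Lef1: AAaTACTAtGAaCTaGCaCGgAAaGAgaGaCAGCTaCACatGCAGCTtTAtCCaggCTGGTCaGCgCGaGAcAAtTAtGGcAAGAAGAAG
Tcf7: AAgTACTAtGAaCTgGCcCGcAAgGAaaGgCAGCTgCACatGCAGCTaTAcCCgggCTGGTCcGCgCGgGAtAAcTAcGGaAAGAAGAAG
Tcf7l1: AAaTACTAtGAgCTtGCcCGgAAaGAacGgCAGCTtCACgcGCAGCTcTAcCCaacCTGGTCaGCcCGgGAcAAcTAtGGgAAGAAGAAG
Tcf7l2: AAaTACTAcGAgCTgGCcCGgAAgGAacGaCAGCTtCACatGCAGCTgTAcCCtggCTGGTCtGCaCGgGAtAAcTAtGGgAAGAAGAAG
Tcf7, Tcf7l1 and Tcf7l2 each matched Lef1 at 73 of these 90 bases. Over whole transcripts the longest identical stretch between any pair of the 4 was 23 bases, found between Lef1 and Tcf7l1 and between Tcf7l1 and Tcf7l2. Lef1 and Tcf7 shared at most 17 bases in a row.

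The start regions of Lef1 are shown because Lef1 was the member that changed, and those of Tcf7 and Tcf7l2 because these factors made up most of the family. The sequences are RefSeq's on GRCm38.p6, a later build than the submitters' mm9, and run from 250 bases before to 50 bases after a listed start. Capitals mark CTTTG or CAAAG, the core that LEF/TCF proteins recognise on either strand, and ATTGT or ACAAT, the core that SOX proteins recognise. A LEF/TCF core cannot overlap a SOX core, though the SOX letters of both strands can overlap each other:
Lef1, first listed start, chr3:131110047-131110346, plus strand: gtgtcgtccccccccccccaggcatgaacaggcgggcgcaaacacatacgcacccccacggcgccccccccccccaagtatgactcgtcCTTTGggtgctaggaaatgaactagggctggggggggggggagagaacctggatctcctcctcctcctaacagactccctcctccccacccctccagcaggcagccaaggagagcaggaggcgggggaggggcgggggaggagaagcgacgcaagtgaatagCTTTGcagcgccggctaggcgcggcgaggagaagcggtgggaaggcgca
Lef1, last listed start, inside the gene, chr3:131156044-131156343, plus strand: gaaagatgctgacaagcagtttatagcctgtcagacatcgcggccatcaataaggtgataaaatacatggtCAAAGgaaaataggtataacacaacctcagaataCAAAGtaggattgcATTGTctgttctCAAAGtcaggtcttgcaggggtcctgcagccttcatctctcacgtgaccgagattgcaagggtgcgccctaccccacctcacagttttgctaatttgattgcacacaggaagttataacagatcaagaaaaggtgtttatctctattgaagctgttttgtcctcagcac
Tcf7, first listed start, chr11:52282965-52283264, minus strand: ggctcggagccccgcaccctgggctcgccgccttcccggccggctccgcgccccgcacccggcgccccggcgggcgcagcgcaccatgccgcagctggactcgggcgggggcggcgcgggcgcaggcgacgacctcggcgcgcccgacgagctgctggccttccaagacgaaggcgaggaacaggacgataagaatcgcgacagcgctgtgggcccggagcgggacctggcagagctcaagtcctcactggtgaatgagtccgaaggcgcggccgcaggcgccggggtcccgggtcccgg
Tcf7l2, first listed start, chr19:55741560-55741859, plus strand: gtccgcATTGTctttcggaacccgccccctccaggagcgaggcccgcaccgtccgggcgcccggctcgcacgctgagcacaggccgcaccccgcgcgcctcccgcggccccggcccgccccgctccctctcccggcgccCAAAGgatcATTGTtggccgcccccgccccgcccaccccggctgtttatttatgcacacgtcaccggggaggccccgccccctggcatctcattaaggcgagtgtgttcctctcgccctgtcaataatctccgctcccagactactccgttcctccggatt
The first window of Lef1 held 2 LEF/TCF cores and 0 SOX cores, and the last held 3 LEF/TCF cores and 1 SOX core. The first window of Tcf7 held 0 of either, and that of Tcf7l2 held 1 LEF/TCF core and 2 SOX cores. At least 1 LEF/TCF core was present in 53.9% of the 32851 listed windows of all genes, and at least 1 SOX core in 31.0%. A match is a description of letters and says nothing of binding.

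A few facts of the whole series bear on the values below, which are given as CPM (expected counts scaled to a common library size). Totals ran between 18290912 and 24765258 expected counts in SOX17KO and between 21238718 and 27503254 in Control. SOX17KO replicate 1, the library with the highest Lef1, stood apart from the other two of its group, since its log2(CPM + 1) values correlated at 0.968 and 0.971 with theirs, and theirs at 0.991 with each other. The 3 libraries labelled SOX17KO had 33.8, 41.9 and 45.1 CPM of Sox17 itself, against 34.4, 34.5 and 34.2 CPM in Control. The targeted gene was therefore not lower (log2 fold change 0.23, edgeR adjusted p = 0.345), and without SOX17KO replicate 1 it was called higher (0.34 in log2, edgeR adjusted p = 0.0113). SOX17KO is used throughout as the name on the label. The 9 epithelial markers summed to 10287 CPM in SOX17KO replicate 1, to 14587 and 14613 CPM in replicates 2 and 3, and to between 13690 and 14501 CPM in Control, with Krt19 the most abundant. The low sum of replicate 1 lay in the keratins Krt8, Krt18 and Krt19, and Krt19 had 3467 CPM there. Epcam and Cldn7 were called higher in SOX17KO (edgeR adjusted p = 0.0343 and 0.0223), 0 of the 9 lower, and replicate 1 had 677.7 CPM of Epcam against 523.5 to 541.9 CPM in Control. The part of these differences in the Lef1 values was not tested. Since Lef1 and Tcf7 are also genes of T cells, 11 lymphoid markers were examined. Of these 7 had 0 counts in every library, among them Cd3e, Cd3g, Cd2, Cd4, Il7r and Cd79a, and all 11 summed to 0.420 to 0.614 CPM in SOX17KO and 0.362 to 0.723 CPM in Control, with Ptprc the most abundant. Their part in the Lef1 values was not tested. Summed markers of fibroblasts and smooth muscle (9 genes, Acta2 highest, Col3a1, Dcn and Lum at 0) reached at most 0.878 CPM in SOX17KO and 0.383 CPM in Control. Those of endothelium (5 genes, Tek highest, Cldn5 at 0) reached 0.878 CPM in SOX17KO and 0.304 CPM in Control, and 5 myeloid genes, Cd68 highest, 13.5 CPM in SOX17KO and 10.8 CPM in Control. The fibroblast and endothelial maxima were in SOX17KO replicate 1; their part in the Lef1 values was not tested. In bulk samples fewer cells of a type and less RNA per cell cannot be told apart.

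Lef1 rose in the libraries labelled SOX17KO. It had 14.2, 2.63 and 6.04 CPM in SOX17KO replicates 1, 2 and 3, against 0.398, 0.431 and 0.609 CPM in Control replicates 1, 2 and 3. The groups did not overlap, and the lowest SOX17KO library lay above every Control library. Its mean was 7.62 ± 5.94 CPM in SOX17KO and 0.479 ± 0.113 CPM in Control (SD, n = 3 each), a ratio of 15.9. In edgeR's quasi-likelihood test the log2 fold change was 3.98 ± 0.66 (SE; 95% interval 2.42 to 5.54; Benjamini-Hochberg adjusted p = 0.0157). Of all 12137 genes tested, 6.87% were called in either direction, 3.67% higher and 3.2% lower, and 28.2% had groups that did not overlap.

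The size of the Lef1 increase differed between SOX17KO libraries. The highest of them had 5.39 times the CPM of the lowest, and the 95% counting intervals, 12.8 to 15.7 CPM in replicate 1, 2.01 to 3.39 CPM in replicate 2 and 4.96 to 7.29 CPM in replicate 3, did not overlap. These intervals cover counting error only. In Control the same ratio was 1.53, on 11 to 16 counts in replicates 1 and 3 and 9.28 expected counts in replicate 2. Leaving out SOX17KO replicate 1 gave a log2 fold change of 3.14 in edgeR (adjusted p = 0.000359). Lef1 was not called without Control replicate 1, 2 or 3 (edgeR adjusted p = 0.109, 0.0918 and 0.0876) or with limma-voom (adjusted p = 0.0782). Over all alternatives the adjusted p ran between 2.49e-09 with DESeq2 and 0.109.

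**Figure D1:**
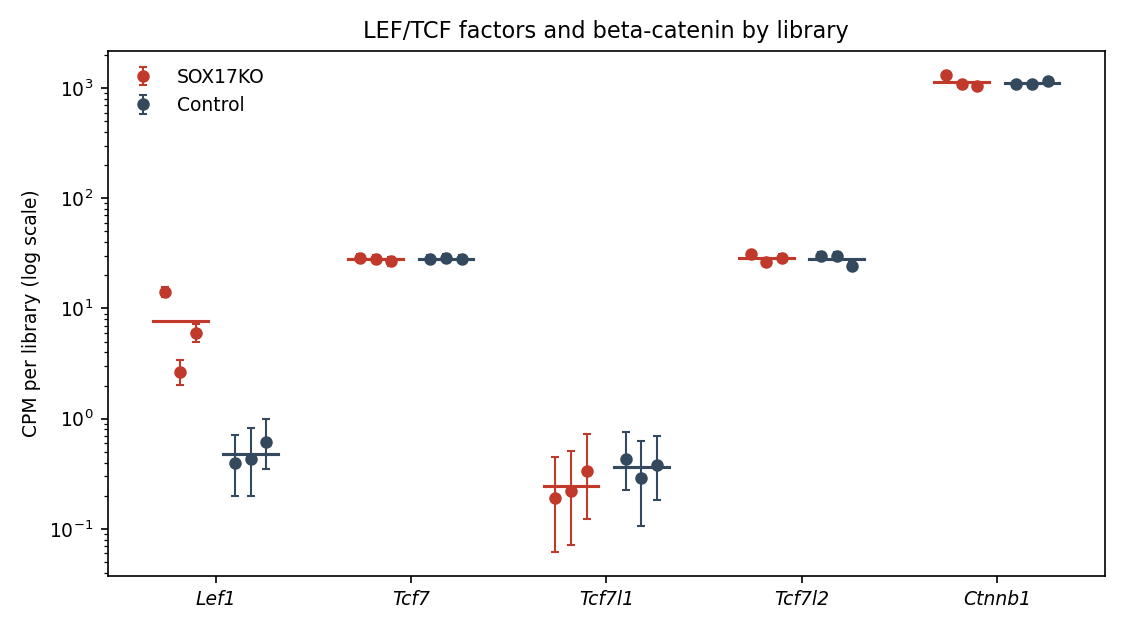
CPM of the 5 genes in each library on a log scale, with SOX17KO libraries in red left of Control libraries in dark blue. Points are libraries in order of replicate, vertical bars are 95% exact Poisson intervals for counting error and horizontal lines are group means; Lef1 is the gene whose groups do not overlap, at 2.63 to 14.2 CPM in SOX17KO and 0.398 to 0.609 CPM in Control.

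Tcf7, which encodes TCF-1, was at nearly the same level in all 6 libraries. It had 28.9, 28.3 and 26.8 CPM in SOX17KO replicates 1, 2 and 3 and 28.4, 28.7 and 28.2 CPM in Control replicates 1, 2 and 3, and the groups overlapped. The means were 27.995 ± 1.06 CPM in SOX17KO and 28.4 ± 0.260 CPM in Control (SD, n = 3 each). The log2 fold change was -0.02 with a 95% interval of -0.21 to 0.17 (edgeR adjusted p = 0.933).

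Tcf7l2, which encodes TCF-4, had 30.95, 26.4 and 28.7 CPM in SOX17KO replicates 1, 2 and 3, against 30.1, 30.1 and 24.4 CPM in Control replicates 1, 2 and 3. The lowest library of all was Control replicate 3 and the highest SOX17KO replicate 1, so the groups overlapped. The means were 28.7 ± 2.27 CPM in SOX17KO and 28.2 ± 3.28 CPM in Control (SD, n = 3 each). The log2 fold change was 0.03 with a 95% interval of -0.25 to 0.30 (edgeR adjusted p = 0.946).

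Tcf7l1, which encodes TCF-3, was close to the limit of detection in both groups. It had 5, 5 and 6 counts in SOX17KO replicates 1, 2 and 3 and 12, 6 and 10 counts in Control replicates 1, 2 and 3, which is 0.191, 0.219 and 0.333 CPM in SOX17KO and 0.434, 0.287 and 0.380 CPM in Control. It did not pass the low-count filter, so 4 of the 5 genes were tested. From the summed counts of 16 in SOX17KO and 28 in Control, the ratio was 0.638 with a 95% counting interval of 0.322 to 1.22, and a difference was not detectable at this depth.

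Ctnnb1 was by far the most abundant of the 5, higher than 99.3% of tested genes by mean CPM. It had 1311, 1080 and 1035 CPM in SOX17KO replicates 1, 2 and 3, against 1092, 1096 and 1171 CPM in Control replicates 1, 2 and 3. SOX17KO replicate 1 was the highest library and replicate 3 the lowest, with the Control libraries between them. The means were 1142 ± 148.3 CPM in SOX17KO and 1119 ± 44.4 CPM in Control (SD, n = 3 each), and the log2 fold change was 0.03 with a 95% interval of -0.23 to 0.29 (edgeR adjusted p = 0.933). Among the 4 tested members 1 rose, 0 fell and 3 were not called. A p that misses the threshold does not show that these 3 were equal, and the widest of their intervals reached -0.25 and 0.30 in log2.

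To compare levels between the factors, CPM were divided by the length of the longest protein-coding transcript of each gene in GENCODE M21, 3.482 kb for Lef1, 2.471 kb for Tcf7, 3.042 kb for Tcf7l1 and 3.715 kb for Tcf7l2. By this measure Tcf7 led in all 6 libraries and Tcf7l2 came second in all 6. Tcf7 was at 11.7, 11.4 and 10.9 CPM per kilobase in SOX17KO replicates 1, 2 and 3 and at 11.5, 11.6 and 11.4 in Control replicates 1, 2 and 3. Tcf7l2 was at 8.33, 7.11 and 7.73 CPM per kilobase in SOX17KO and at 8.10, 8.10 and 6.57 in Control. Their ratio, Tcf7 over Tcf7l2, was 1.40, 1.61 and 1.40 in SOX17KO replicates 1, 2 and 3 and 1.42, 1.43 and 1.74 in Control replicates 1, 2 and 3. The order rests on the lengths: in plain CPM, Tcf7 exceeded Tcf7l2 in 2 of the 6 libraries, SOX17KO replicate 2 and Control replicate 3. With the coding length in place of the transcript length Tcf7 led in all 6. That length was 909 bases for Tcf7, the shortest, against 1191 for Lef1, 1797 for Tcf7l1 and 1818 for Tcf7l2. A shorter length gives a higher level per kilobase, so both orders hold only for the annotated lengths. If the Tcf7 form in these libraries is longer than the annotated one, its lead by either length is overstated.

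Below these, the order of Lef1 and Tcf7l1 differed between groups. Lef1 ranked below Tcf7l2 and above Tcf7l1 in every SOX17KO library, at 4.08, 0.756 and 1.74 CPM per kilobase in replicates 1, 2 and 3, with Tcf7l1 at 0.0627, 0.0721 and 0.109. In Control both were low, Lef1 at 0.114, 0.124 and 0.175 CPM per kilobase and Tcf7l1 at 0.143, 0.0944 and 0.125 in replicates 1, 2 and 3, with Tcf7l1 above Lef1 in replicate 1 and below it in the others. The counting intervals of these Control values overlapped. Tcf7 exceeded Lef1 by 2.87, 15.1 and 6.26 times in SOX17KO replicates 1, 2 and 3, against 100.4, 93.9 and 65.3 times in Control replicates 1, 2 and 3.

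As a share of the family's summed CPM per kilobase, Lef1 made up 16.9%, 3.90% and 8.49% in SOX17KO replicates 1, 2 and 3, against 0.576%, 0.620% and 0.956% in Control replicates 1, 2 and 3. The mean share was 9.76% ± 6.58 in SOX17KO and 0.718% ± 0.208 in Control (SD, n = 3 each), a difference of 9.04 percentage points. The exact 2-sided permutation test gave p = 0.1, the smallest that 3 libraries against 3 allow, so the design cannot reach the 0.05 threshold. The share of Tcf7 was 53.5% ± 5.33 in SOX17KO and 59.5% ± 2.51 in Control, and that of Tcf7l2 36.3% ± 1.70 in SOX17KO and 39.1% ± 2.76 in Control (exact permutation p = 0.3 for each). The summed family was 24.2, 19.4 and 20.4 CPM per kilobase in SOX17KO replicates 1, 2 and 3 and 19.8, 19.9 and 18.3 in Control replicates 1, 2 and 3. Ctnnb1, by the same measure, exceeded the whole family by 14.98, 15.4 and 13.99 times in SOX17KO and 15.2, 15.2 and 17.7 times in Control.

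**Figure D2:**
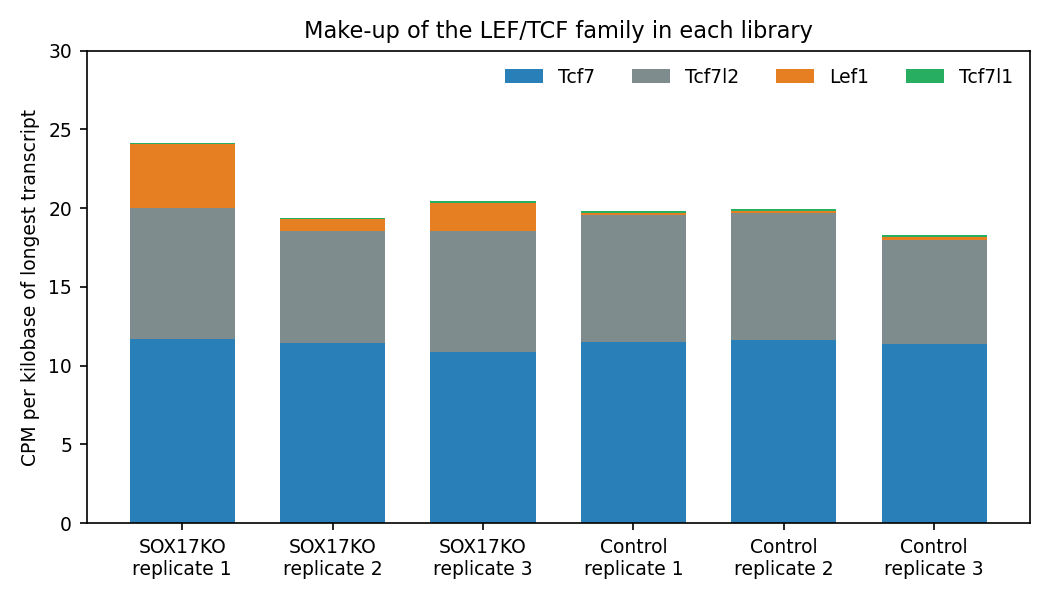
Stacked bars of CPM per kilobase of longest transcript for the 4 LEF/TCF genes in each library, with SOX17KO libraries left of Control libraries. Tcf7 and Tcf7l2 fill most of every bar, and the Lef1 layer is visible in the 3 SOX17KO libraries, at 16.9%, 3.90% and 8.49% of the bar.

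Pathway genes were then read from the same fit in 6 lists. These hold co-repressors, co-activators, the destruction complex, targets, SOX factors and genes listed for adherens junctions. They hold 73 distinct tested genes, Lef1 and Tcf7 themselves among them. By edgeR over all 6 libraries 7 of the 73 rose, Lef1 included, and 0 fell. The share called was 9.59%, near the 6.87% of all tested genes. The median log2 fold change of the 73 was 0.01, against 0.01 over all genes. Other fits called some lower. DESeq2 called 10 higher, Wif1 included, and 3 lower (Notum, Sox13 and Tnfrsf19). Without SOX17KO replicate 1 edgeR called 20, of which 13 were higher and 7 lower (Bcl9, Notum, Parp1, Sox5, Sox13, Tle3 and Tnfrsf19), and without replicate 2 it called 9 higher and 1 lower (Notum). Without any 1 Control library it called 3, all higher.

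Co-repressors held 1 call. Of 16 tested co-repressors and inhibitors, Tle4, a Groucho-family protein that LEF/TCF factors recruit to silence targets, rose, 0 fell and 15 were not called. Tle4 had 35.6, 38.6 and 34.8 CPM in SOX17KO replicates 1, 2 and 3. In Control replicates 1, 2 and 3 it had 24.2, 23.2 and 21.6 CPM. The groups did not overlap, as in 28.2% of all tested genes. The log2 fold change of Tle4 was 0.66 ± 0.09 (SE, edgeR adjusted p = 0.00824). It was not called without Control replicate 1, 2 or 3 (edgeR adjusted p = 0.0501, 0.0662 and 0.0636), with log2 fold changes of 0.70, 0.66 and 0.61. The median of the list was -0.02, against 0.01 over all tested genes, of which 6.87% were called.

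Co-activators and the destruction complex held no call over all 6 libraries. The edgeR fit called 0 of the 12 tested co-activators, with a median log2 fold change of -0.07; the most abundant by mean CPM, Smarca4, the ATPase of a chromatin remodelling complex, averaged 350.3 ± 6.31 CPM in SOX17KO and 382.7 ± 17.3 CPM in Control (SD, n = 3 each; edgeR adjusted p = 0.418). It called 0 of the 13 tested genes of the destruction complex, with a median of -0.004. Its most abundant gene, Csnk1a1, the kinase that primes beta-catenin for degradation, averaged 389.5 ± 63.2 CPM in SOX17KO and 371.6 ± 9.19 CPM in Control (edgeR adjusted p = 0.841). In each of these 2 lists edgeR gave 1 gene an unadjusted p below 0.05, and DESeq2 and limma-voom called 0. That co-activator, named after its values were seen, was Bcl9, an adaptor that links beta-catenin to further co-activators. Bcl9 had 51.6, 39.1 and 37.7 CPM in SOX17KO replicates 1, 2 and 3, against 60.03, 54.2 and 52.05 CPM in Control replicates 1, 2 and 3. Its groups did not overlap, as in 28.2% of all tested genes (edgeR adjusted p = 0.179). Without SOX17KO replicate 1 edgeR called 2 co-activators lower, Bcl9 (log2 fold change -0.53, adjusted p = 0.00161) and Parp1 (-0.28, adjusted p = 0.0189). The destruction complex gene was Csnk1e (edgeR adjusted p = 0.198).

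Of 22 tested Wnt pathway targets, a list that holds Lef1 and Tcf7 themselves, edgeR called 5 higher over all 6 libraries, Lef1 among them. It called 0 lower and 17 not. Over all tested genes 3.67% were called higher and 3.2% lower. The median log2 fold change of the targets was 0.16, against 0.01 over all tested genes. DESeq2 called 8 higher, among them Wif1, which did not pass the low-count filter of edgeR, and 2 lower. Dkk2, which encodes a secreted Wnt antagonist, had 12.4, 9.74 and 7.37 CPM in SOX17KO replicates 1, 2 and 3. In Control replicates 1, 2 and 3 it had 0.362, 0.478 and 0.609 CPM. The groups did not overlap, as in 28.2% of all tested genes. The edgeR adjusted p was 0.000718 for a log2 fold change of 4.34 ± 0.30 (SE), and Dkk2 was called without each library in turn. The others were Lef1, the stem cell receptor Lgr5, the protease Mmp7 and Sp5, a transcription factor induced by Wnt signals and named here after its values were seen. Lgr5 averaged 145.2 ± 25.3 CPM in SOX17KO and 44.8 ± 5.68 CPM in Control, and Mmp7 6.09 ± 2.04 CPM in SOX17KO and 1.58 ± 0.0552 CPM in Control (SD, n = 3 each). Sp5 had 5.84, 8.30 and 2.49 CPM in SOX17KO replicates 1, 2 and 3 and 1.23, 1.48 and 1.33 CPM in Control replicates 1, 2 and 3 (log2 fold change 2.04, edgeR adjusted p = 0.0350). Mmp7 was not called without any 1 Control library (highest edgeR adjusted p 0.0691), nor was Sp5, which was also not called without SOX17KO replicate 2 (adjusted p = 0.0682).

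Nkd1 and Apcdd1, targets named after their values were seen, were highest in the library with the most Lef1. Nkd1, a feedback inhibitor of Dishevelled, had 148.1, 9.17 and 24.1 CPM in SOX17KO replicates 1, 2 and 3, against 2.82, 3.06 and 3.23 CPM in Control replicates 1, 2 and 3. Apcdd1, a membrane-bound Wnt inhibitor, had 28.97, 2.33 and 6.93 CPM in SOX17KO and 0.688, 0.813 and 1.10 CPM in Control. In both genes the SOX17KO libraries were ordered as for Lef1, with replicate 1 highest and replicate 2 lowest. Axin2, Ascl2, Lgr4 and Znrf3, targets that were not called, had the same order, so it was not particular to Nkd1 and Apcdd1. The SOX17KO libraries of Nkd1 and Apcdd1 lay above every Control library, and groups did not overlap in 28.2% of all tested genes. The called targets other than Lef1 were ordered otherwise. Lgr5 had 123.2, 139.5 and 172.9 CPM in SOX17KO replicates 1, 2 and 3, and Sp5 was highest in replicate 2. Dkk2 and Mmp7 were highest in replicate 1 and lowest in replicate 3. Neither Nkd1 nor Apcdd1 was called over all 6 libraries (edgeR adjusted p = 0.0550 and 0.0544). Without SOX17KO replicate 1 both were called, with log2 fold changes of 2.44 for Nkd1 and 2.38 for Apcdd1 in place of 4.32 and 3.87 (edgeR adjusted p = 0.000605 and 0.00324). DESeq2 called both over all libraries (adjusted p = 0.000843 and 0.00167), and so did edgeR without SOX17KO replicate 2 (0.0222 and 0.0182). The targets that DESeq2 called lower were Notum, a secreted enzyme that inactivates Wnt ligands, and Tnfrsf19, a receptor gene, also named after their values were seen. Notum had 155.4, 179.6 and 142.6 CPM in SOX17KO replicates 1, 2 and 3, against 210.0, 207.7 and 195.0 CPM in Control replicates 1, 2 and 3. Tnfrsf19 had 77.02, 96.4 and 92.2 CPM in SOX17KO and 120.5, 117.6 and 109.5 CPM in Control. Neither gene's groups overlapped, which was so for 28.2% of all tested genes. Neither was called by edgeR over all 6 libraries (adjusted p = 0.0915 and 0.0761), against 0.0251 and 0.0171 in DESeq2.

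Axin2, the feedback scaffold of the destruction complex, had 235.4, 148.7 and 183.7 CPM in SOX17KO replicates 1, 2 and 3, against 164.7, 152.4 and 141.8 CPM in Control replicates 1, 2 and 3, with overlapping groups (edgeR adjusted p = 0.369).

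HMG box factors of the SOX family held no edgeR call among 6 tested, with 2 at an unadjusted p below 0.05, Sox9 and Sox13. DESeq2 called 1, Sox13, lower (adjusted p = 0.0416), and limma-voom 0. Sox13 had 27.02, 47.1 and 44.4 CPM in SOX17KO replicates 1, 2 and 3, against 64.9, 60.4 and 55.5 CPM in Control replicates 1, 2 and 3. The groups did not overlap, as in 28.2% of all tested genes (edgeR adjusted p = 0.137). The most abundant by mean CPM was Sox9, a factor of crypt base cells, at 127.5, 148.7 and 144.9 CPM in SOX17KO replicates 1, 2 and 3, against 117.9, 123.8 and 103.3 CPM in Control replicates 1, 2 and 3 (log2 fold change 0.29, edgeR adjusted p = 0.161). Leaving out SOX17KO replicate 1 gave 4 SOX factors a call in edgeR, Sox9 (log2 fold change 0.35, adjusted p = 0.0145) and Sox17 higher, and Sox5 and Sox13 lower (-1.11 and -0.40, adjusted p = 0.0166 and 0.00844). Of 6 tested genes listed for adherens junctions, Cdh17 rose and 5 were not called, while 6.87% of all tested genes were called. Cdh17, an intestinal cadherin, had 256.0, 206.7 and 378.8 CPM in SOX17KO replicates 1, 2 and 3 and 81.9, 73.1 and 75.7 CPM in Control replicates 1, 2 and 3 (log2 fold change 1.87 ± 0.22 SE, edgeR adjusted p = 0.00453). It was called without each library in turn.

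**Figure D3:**
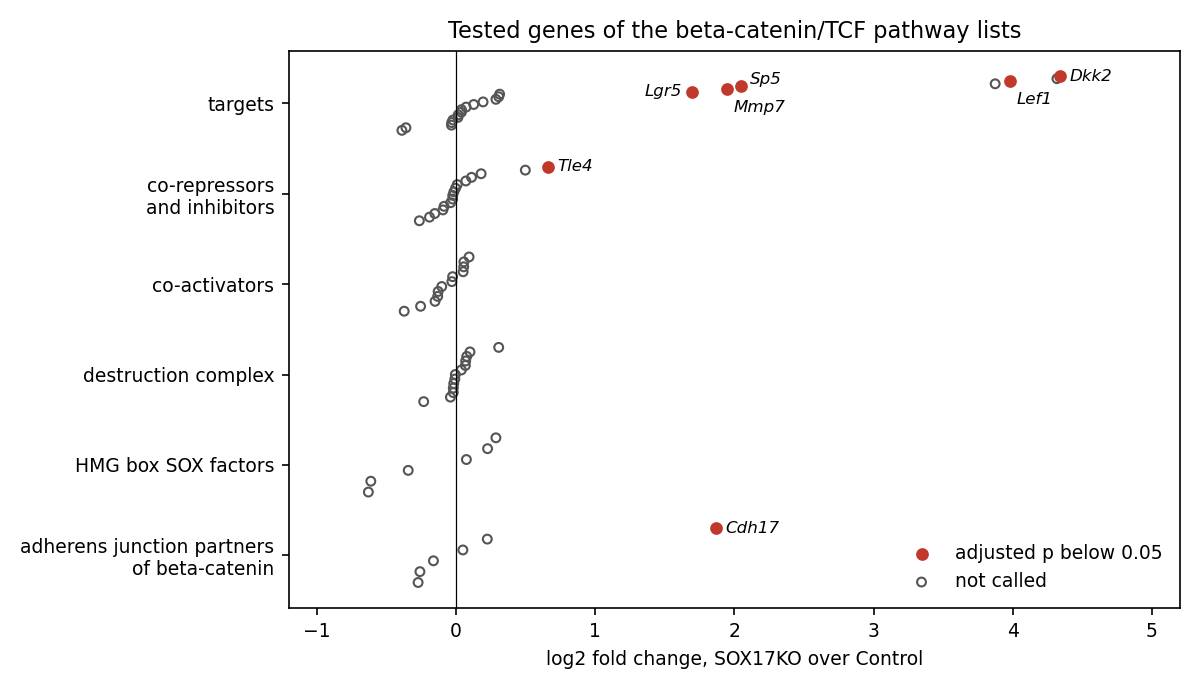
Log2 fold change, SOX17KO over Control, of each tested gene in the 6 pathway lists, spread vertically only for legibility. Filled red points are genes with an edgeR adjusted p below 0.05 over all 6 libraries, all of them higher in SOX17KO; 5 are targets, 1 is the co-repressor Tle4 and 1 the cadherin Cdh17.

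The genes beside each member were examined for changes shared along a chromosome. Lef1 lies on chromosome 3, and of the 10 tested genes on each side of it 3 were called higher and 1 lower, with a median log2 fold change of 0.12. Over the 594 tested genes of chromosome 3 the median was -0.02 and 5.72% were called. Dkk2, described above, is 5 tested genes away on one side of Lef1. On the other side, beyond Rpl34, lie Ostc, a subunit of the oligosaccharyltransferase complex, and Agxt2l1. Ostc had 129.5, 146.4 and 143.4 CPM in SOX17KO replicates 1, 2 and 3 against 100.2, 108.1 and 107.4 CPM in Control replicates 1, 2 and 3, and Agxt2l1 had 1.91, 2.02 and 2.11 CPM in SOX17KO and 0.398, 0.383 and 0.457 CPM in Control. Their log2 fold changes were 0.41 and 2.27 (edgeR adjusted p = 0.0296 and 0.00319). Ostc was not called without any 1 library other than SOX17KO replicate 1 (highest edgeR adjusted p 0.153). Neither nearest neighbour was called, Rpl34 at 0.45 in log2 (edgeR adjusted p = 0.143) and Hadh, on the side of Dkk2, at 0.17 (adjusted p = 0.337), and Npnt, a matrix protein gene, fell on that side (log2 fold change -0.58, edgeR adjusted p = 0.0153). Within 5 tested genes on each side of Lef1, 3 were called higher and 0 lower, with a median log2 fold change of 0.41. The lower call, Npnt, lay 8 tested genes away. The part of these neighbours in the Lef1 value was not tested.

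Tcf7l1 lies on chromosome 6, where 75.4% of 586 tested genes had a negative log2 fold change and the median was -0.24, with 14 called higher and 63 lower. Of the 20 nearest tested genes 18 had a negative log2 fold change, with a median of -0.24. The lower Tcf7l1 count in SOX17KO, 16 against 28, was not detectable as a difference, and the part of the chromosome in it was not tested. Beside Tcf7, Tcf7l2 and Ctnnb1, on chromosomes 11, 19 and 9, the medians of the 20 nearest tested genes were 0.05, 0.02 and 0.01. In each neighbourhood 1 gene was called, Phf15, Adra2a and Vipr1, which are named after their values were seen.

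**Figure D4:**
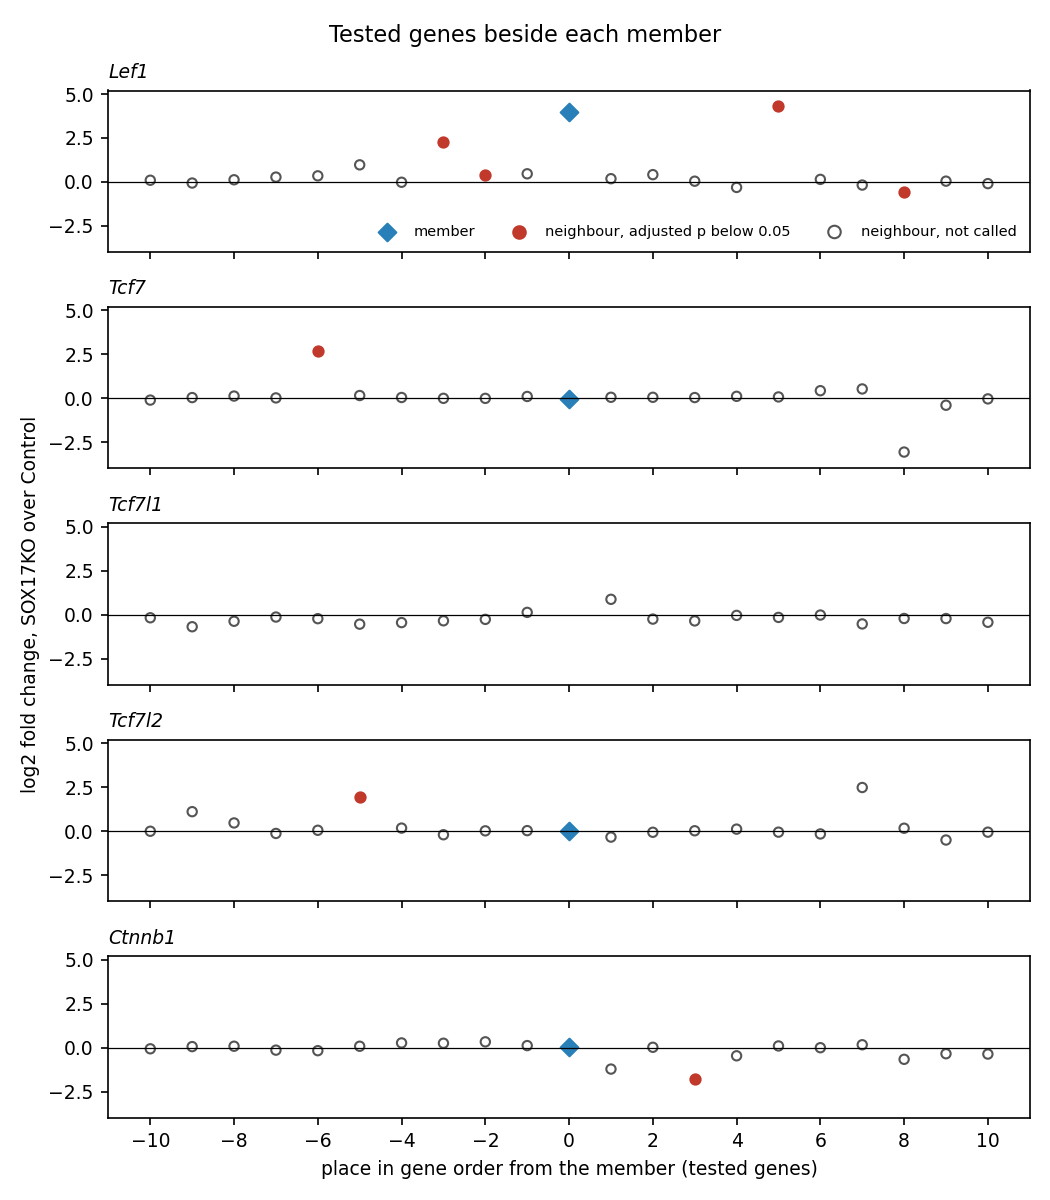
Log2 fold change, SOX17KO over Control, of the 10 tested genes on each side of each member, by place in gene order; blue diamonds are the members and red points are neighbours with an edgeR adjusted p below 0.05. Lef1 has 4 called neighbours, the most among the 5 genes, and those of Tcf7l1, which was not tested, lie mostly below 0.

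The genes whose profile was most like that of Lef1 over the 6 libraries were R3hdml, Muc13, a transmembrane mucin gene, and Papss2, which encodes a synthase of the sulfate donor PAPS. Likeness was the root mean square difference of log2(CPM + 0.5) after each gene's own mean was taken away, over 11399 tested genes with a mean of at least 1 CPM. It was 0.20, 0.23 and 0.26 for these 3, against a median of 1.54 over all genes compared. R3hdml had 12.4, 1.27 and 3.49 CPM in SOX17KO replicates 1, 2 and 3 and 0.145, 0.144 and 0.304 CPM in Control replicates 1, 2 and 3. Muc13 had 8.89, 2.68 and 4.93 CPM in SOX17KO and 0.398, 0.383 and 0.533 CPM in Control, and Papss2 had 15.8, 3.29 and 6.54 CPM in SOX17KO and 0.362, 0.239 and 0.304 CPM in Control. All 3 followed the order of Lef1 within SOX17KO, which their choice fixes. They lie on chromosomes 2, 16 and 19, away from Lef1.

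**Figure D5:**
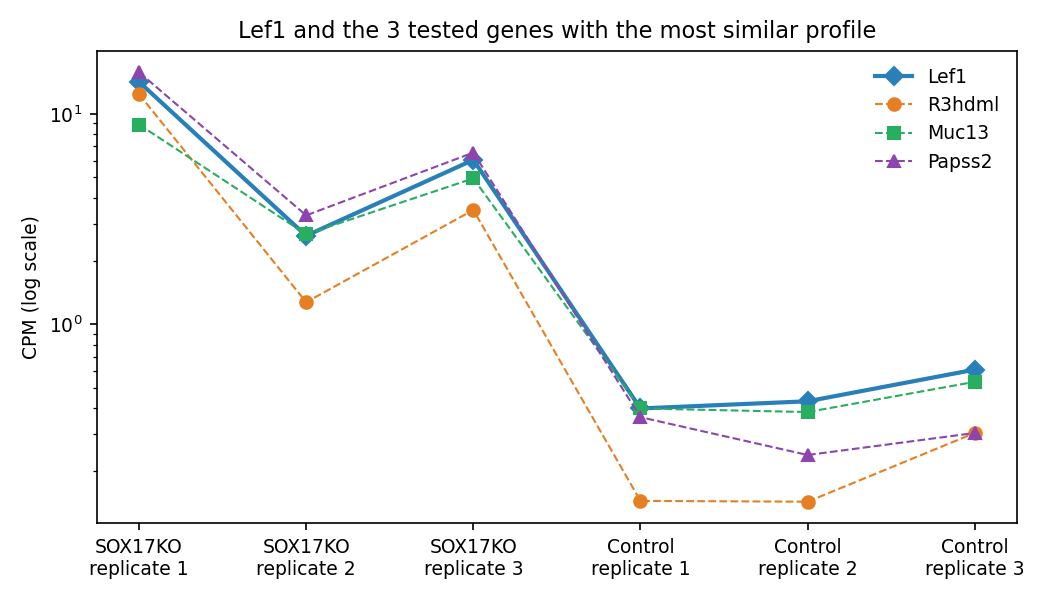
CPM on a log scale of Lef1 and of R3hdml, Muc13 and Papss2, the 3 tested genes with the most similar profile, in each library, with SOX17KO libraries left of Control libraries; lines join the values of a gene for legibility only. All 4 genes are highest in SOX17KO replicate 1 and lie between 0.144 and 0.609 CPM in the Control libraries.

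The other tested members had profiles that varied little between libraries. For Tcf7 the most alike genes were Fubp3, Ears2 and Ehf (root mean square differences of 0.014, 0.015 and 0.017 in log2, against a median of 0.16). For Tcf7l2 they were Rufy2, Tap1 and 1700081L11Rik (0.029, 0.038 and 0.038, against 0.20), and for Ctnnb1 they were Tst, Ttc4 and Kpnb1 (0.017, 0.019 and 0.021, against 0.19). Kpnb1, which encodes the nuclear import receptor importin beta, had 770.0, 628.5 and 608.2 CPM in SOX17KO replicates 1, 2 and 3, against 646.9, 666.9 and 701.2 CPM in Control replicates 1, 2 and 3. Its order of libraries within SOX17KO was that of Ctnnb1, which a choice by likeness favours. Tcf7l1 had too few counts for this comparison.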

How the data were processed

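The authors deposited expected counts, which RSEM estimates and which need not be whole, for 6 libraries; column names gave the samples. Bowtie, RSEM and mm9 are named, with no versions, in the submitters' processing notes. Per the labels' protocols the libraries were directional and poly(A)-selected; annotation and strand setting: not given in the sources used here. Values were rounded to whole numbers and tested in edgeR 4.0.16 under R 4.3.3 by quasi-likelihood (TMM factors, filterByExpr with a minimum count of 10 and total of 15, genotype only, Benjamini-Hochberg over 12137 genes, called below 0.05). CPM use TMM-adjusted library sizes. The standard error is the log2 fold change divided by the square root of F. Shares were compared with an exact 2-sided permutation test (scipy 1.17.1).

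The members, lists and tests were chosen with earlier results of these data known. The text names up to 3 called genes of each list in each direction, by smallest p. Of a list with no call it names the most abundant gene. It also names all members, Sox17, the 3 genes most like each tested member, and of each marker list the top gene and those at 0. Other pathway genes and genes beside the members were named outside this rule, among them Axin2, Csnk1e, Parp1, Sox13, Ostc and Agxt2l1. Lengths came from GENCODE M21, and gene order and start regions from RefSeq on GRCm38.p6, which matched 99.0% of tested genes; mm9 coordinates were not used. Alternatives were RLE factors, library totals, other low-count filters, DESeq2 1.42.0, limma-voom (limma 3.58.1), values without rounding, a block for replicate number, and fits that leave out 1 library. Lengths were varied for the family shares, and the window and CPM minimum for neighbours and alike genes. The labels name no molecular identifiers, so intervals cover counting error only.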

Additional observations from a re-analysis of the deposited data

How the results depend on the processing

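Lef1 was higher in SOX17KO under every alternative, with log2 fold changes of 3.14 to 4.39; it was the 1 member called under each except limma-voom, which called 0, and when a Control library was left out (0 to 1 members called over the 6 fits that leave out a library). DESeq2 called 1439 genes and 13 list genes (10 higher, 3 lower), against 834 and 7 in edgeR. With a library left out edgeR called between 192 (without Control replicate 2) and 2708 genes (without SOX17KO replicate 1), and between 3 and 20 list genes (13 higher and 7 lower without SOX17KO replicate 1). With the replicate number as a block 326 genes and 5 list genes were called, Lef1 among them (edgeR adjusted p = 0.0321), while Tle4, Sp5 and Ostc were not (adjusted p = 0.0545, 0.0741 and 0.121). Same-numbered libraries did not deviate together (correlations of -0.25, -0.07 and -0.29). With 3 libraries a group, and deviations taken from each group's own mean, these values cannot tell whether the numbers pair the samples. The difference in Lef1 share lay between 5.48 and 11.97 percentage points with a library left out. Tcf7 led in 6 libraries per transcript length and in 2 with no length. The lead is read within each library, so leaving out a library could not change it in the others. The median beside Lef1 was 0.41 with 5 neighbours on each side. With a library left out, log2 fold changes that were not called changed sign for Tcf7 (-0.046 to 0.0087), Tcf7l2 (-0.080 to 0.081), Ctnnb1 (-0.084 to 0.10) and Csnk1a1 (-0.045 to 0.18). Of the 12 most alike genes 9 were chosen again at a minimum of 5 CPM. The 3 lost were R3hdml, Muc13 and Papss2, those most like Lef1. Their means over the 6 libraries lay below that minimum and those of the other 9 above it. This outcome was therefore fixed by the means and does not show how stable the choice was. The cause of these differences was not tested. Depth limits Tcf7l1 and the Control values of Lef1, which rest on at most 16 counts a library.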
